A study of Caenorhabditis elegans with 4 samples.

Results

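The genes described here encode copies of 2 mitochondrial proteins of Caenorhabditis elegans: ucr-2.1, ucr-2.2 and ucr-2.3, which encode core protein 2 of respiratory complex III, and asb-1 and asb-2, which encode subunit b of the ATP synthase. They were chosen by gene symbol, as copies of 1 subunit whose ratios in these arrays ran in opposite directions, so their ratios and the gaps between copies are given as a description, without a test. Of the 5 genes, 4 had a spot that the annotation of the array platform assigns to them alone, among 14958 named genes in all. Each of the 4 had 1 spot with a value on every array, and 0 of the 247 spots assigned to several genes included a member. The gene ucr-2.1 was not analysed here, because no spot is listed under its name.

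The study used 4 spotted arrays, of which each compared adult glp-4 mRNA (channel 2, preps 1 to 4) with wild-type mixed reference RNA (channel 1). The product of glp-4 is a valyl-tRNA synthetase, and a temperature-sensitive glp-4 mutation leaves adults raised at the restrictive temperature with very few germ cells. The glp-4 allele, the temperature, the age of the adults, the makeup of the reference and the number of worms pooled in a prep were not stated in the sources used here, and the arrays form 1 group. The values are log2 ratios and are read here with the glp-4 adults as numerator. That direction is likely, from the order of the channels and of the array descriptions, but dyes are not stated, and if it were the other way round all signs below would be exchanged.

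Array medians lay between -0.07 and 0.08, and the Pearson correlation between arrays across spots lay between 0.719 and 0.788. Of 13 germline marker genes, 13 were lower in glp-4 adults, with a median log2 ratio of -3.31 over the list and of -3.82 to -2.95 by array, and of 30 major sperm protein genes 29 were lower. Of 8 intestinal marker genes 8 were higher (median log2 ratio 2.56, by array 2.29 to 2.83). Of 7 muscle marker genes 6 were higher (median 1.11), with uneven medians of 1.31, 2.21, 1.11 and 0.24 on preps 1 to 4. Of 8 neuron marker genes 5 were lower (median -0.77, by array -0.88 to -0.52). In these counts, higher and lower mean an adjusted p under 0.05 in limma, a threshold that 37.9% of the 19981 features tested passed, 3403 of them higher and 4174 lower. The part of these markers in the values of the mitochondrial copies was not tested.

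Complex III passes electrons from ubiquinol to cytochrome c and pumps protons across the inner mitochondrial membrane. Its core proteins belong to the family of mitochondrial processing peptidases and face the matrix. The ATP synthase uses the proton gradient to make ATP, and its subunit b is part of the peripheral stalk, which holds the catalytic head still while the rotor turns. In C. elegans, asb-1 is known as the germline copy of subunit b and asb-2 as the copy of other tissues. Genes needed in germ cells are scarce on the worm X chromosome, which is largely silent in the germline.

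Within each subunit, one measured copy had a ratio above and the other a ratio below 0 on every array. The complex III copy ucr-2.2 (T10B10.2, chromosome X) had log2 ratios of 1.35, 1.09, 1.39 and 1.25 on preps 1 to 4. Its mean log2 ratio was 1.27 ± 0.13 (SD, n = 4 preps), a share of the RNA 2.41-fold higher than in the reference. The other copy, ucr-2.3 (T24C4.1, chromosome III), had log2 ratios of -2.90, -2.79, -3.07 and -2.85 on preps 1 to 4. Its mean was -2.90 ± 0.12, a 7.47-fold lower share. The values of ucr-2.2 and ucr-2.3 were tightly grouped, each within 0.30 of log2 over the arrays, and did not overlap. In RNA of whole worms, fewer cells of a type and less RNA per cell cannot be told apart.

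The ATP synthase copies were split in the same manner. The copy asb-2 (F02E8.1, chromosome X) had log2 ratios of 1.24, 0.62, 1.15 and 0.82 on preps 1 to 4. Its mean was 0.96 ± 0.29, a 1.94-fold higher share. The copy asb-1 (F35G12.10, chromosome III) had log2 ratios of -2.32, -2.25, -2.09 and -1.89 in that order, with a mean of -2.14 ± 0.19, a 4.40-fold lower share. Neither range touched the other. Prep 2 was lowest for asb-2 and prep 1 lowest for asb-1. The spread of asb-2, 0.61 of log2 between its highest and lowest array, was the widest of the 4 genes.

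**Figure D1:**
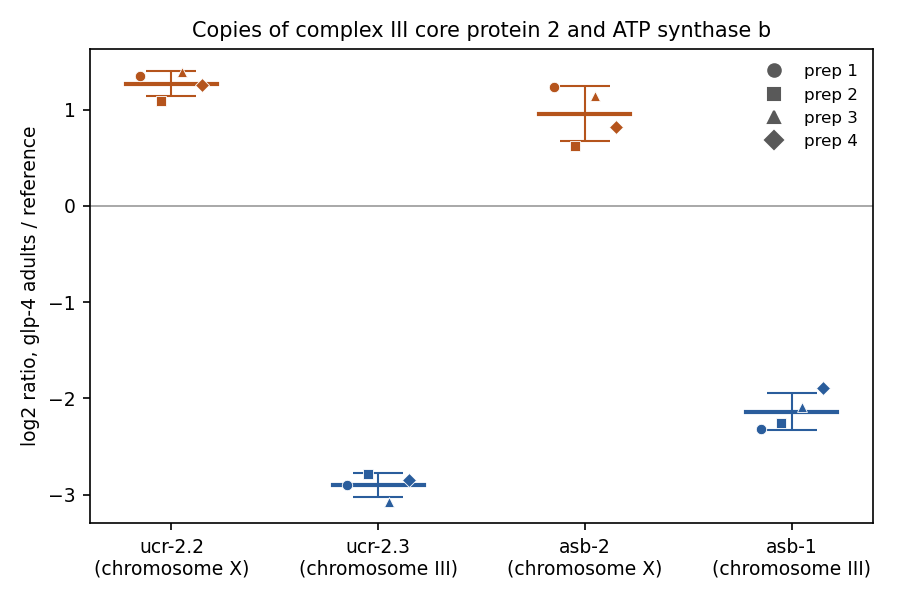
Log2 ratio of glp-4 adults over reference (vertical axis) for the 4 measured copies, with a symbol for each prep, a thick line at the mean and bars of 1 SD (n = 4 preps). Both X-linked copies lie above 0, with means of 1.27 and 0.96, and both copies on chromosome III lie below it, with means of -2.90 and -2.14.

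The gap between copies on the same array does not depend on how that array was centred. The log2 ratio of ucr-2.2 exceeded that of ucr-2.3 by 4.25, 3.88, 4.46 and 4.10 on preps 1 to 4, a mean gap of 4.17 ± 0.25. For asb-2 over asb-1 the gap was 3.56, 2.87, 3.23 and 2.71, a mean of 3.09 ± 0.38 (8.54-fold). The smallest gap of the complex III copies exceeded the largest of the ATP synthase copies. A gap of ratios shows that the share of the copies differed unequally between glp-4 adults and reference, and not which copy made more RNA in either. Whether the spot of a copy also bound RNA of the other copy was not tested.

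In order of the mean log2 ratio, ucr-2.2 came first, then asb-2, asb-1 and ucr-2.3. The first neighbours overlapped in their ranges, and ucr-2.2 exceeded asb-2 by 0.31 ± 0.17, with the higher value on 4 of 4 arrays. The lower neighbours did not overlap, and asb-1 exceeded ucr-2.3 by 0.76 ± 0.24. Among the 19981 features tested, 160 had a mean log2 ratio as low as that of ucr-2.3 or lower (itself included), and 418 one as low as that of asb-1. The upper copies stood less far out. A mean ratio at least as high was found for 1112 features in the case of ucr-2.2 and for 1859 in the case of asb-2. By array, asb-2 lay above between 76.0% (prep 2) and 95.5% (prep 1) of the features, and ucr-2.2 above between 87.4% (prep 2) and 96.2% (prep 1).

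The other subunits of complex III were measured with 7 genes, with 4 higher, 1 lower and 2 not past the threshold in limma (median log2 ratio 0.56, beside 0.00 for all features). In both directions together 5 of 7 passed, beside 37.9% of all features. Their means lay between -0.62 and 0.90, so ucr-2.2 lay above and ucr-2.3 below each of them. The highest was T02H6.11 (0.90 ± 0.32, adjusted p = 0.00675), followed by ucr-1 (0.79 ± 0.30, adjusted p = 0.0107), which encodes core protein 1. R07E4.3 (0.76 ± 0.21, adjusted p = 0.00830), the X-linked gene among the 7, and F45H10.2 (0.56 ± 0.27, adjusted p = 0.0326) were higher too. The Rieske iron-sulfur protein gene isp-1 had a log2 ratio of 0.40 ± 0.33 and the cytochrome c1 gene cyc-1 one of 0.17 ± 0.10, neither past the threshold. The gene T27E9.2 was lower (-0.62 ± 0.43, adjusted p = 0.0451), a call that was lost without prep 1, without prep 2 and without prep 4. The call of F45H10.2 was lost without prep 1, without prep 3 and without prep 4.

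Set against the median of these 7 genes on the same array, ucr-2.2 was 0.72 ± 0.15 higher on the log2 scale. The difference was 0.60, 0.91, 0.76 and 0.60 on preps 1 to 4. The same difference for ucr-2.3 was -3.65, -2.96, -3.70 and -3.50, with a mean of -3.45 ± 0.34. On every array ucr-2.2 was above the highest and ucr-2.3 below the lowest of the 7 genes. Among relatives of the core proteins, the processing peptidase gene mppb-1 had a log2 ratio of 0.02 ± 0.25, which did not pass.

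The ATP synthase list held 13 other measured genes, of which 8 were higher, 0 lower and 5 not past the threshold in limma (median log2 ratio 0.57), with 0 lower at an unadjusted p under 0.05 too. The genes past the threshold made up 61.5%, beside 37.9% of all features. The higher genes were hpo-18 (0.81 ± 0.16, adjusted p = 0.00564), atp-5 (0.75 ± 0.25), asg-2 (0.75 ± 0.18), atp-1 (0.74 ± 0.28), F58F12.1 (0.73 ± 0.20), R04F11.2 (0.70 ± 0.34), mai-2 (0.57 ± 0.10) and atp-3 (0.50 ± 0.26, adjusted p = 0.0466). Of these, atp-1 encodes the alpha subunit of the catalytic head, mai-2 an inhibitor of the enzyme and asg-2 a copy of subunit g. Partners of subunit b in the peripheral stalk are encoded by atp-5 (subunit d), atp-3 (the oligomycin sensitivity protein) and atp-4 (coupling factor 6). The beta subunit gene atp-2 had a log2 ratio of 0.56 ± 0.40 and atp-4 one of 0.53 ± 0.34, with adjusted p of 0.0545 and 0.0520 in limma; both passed without prep 2 and with the arrays centred on their medians. The values of R53.4 (-0.12 ± 0.26), asg-1 (0.12 ± 0.27) and the inhibitor gene mai-1 (-0.19 ± 0.20) also did not pass. Without prep 3 or without prep 4 the higher genes numbered 5, and the calls of atp-3, R04F11.2 and mai-2 were among those lost.

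The copy asb-2 lay above the median of these 13 genes on every array, by 0.39 ± 0.15 on the log2 scale, and asb-1 below it, by a difference of -2.71 ± 0.27. The median of the 13 genes was 0.74, 0.21, 0.69 and 0.65 on preps 1 to 4. The values of asb-2 stood in the same order of arrays, highest on prep 1 and lowest on prep 2. In contrast to ucr-2.2, asb-2 was not above all genes of its complex on preps 2 and 4, where the highest other genes had log2 ratios of 0.69 and 1.02. The copy asb-1 lay below each of the 13 genes on every array, the lowest of which was -0.44, on prep 2.

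**Figure D2:**
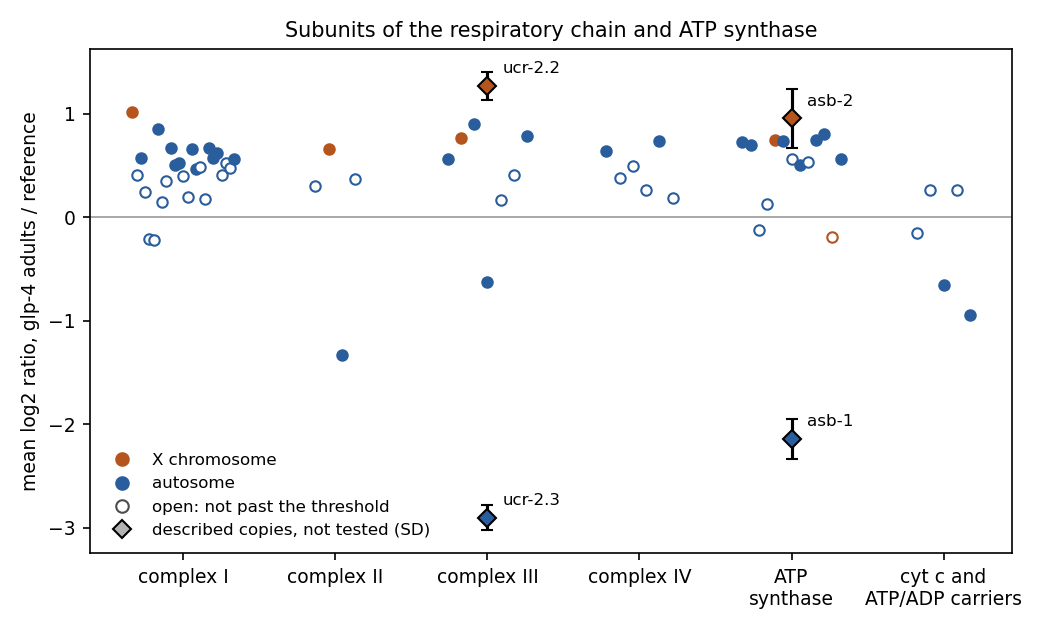
Mean log2 ratio (vertical axis) of the measured subunits by complex, with X-linked genes in orange, autosomal genes in blue, open circles for genes not past the threshold, and diamonds with SD bars (n = 4 preps) for the described copies. Most subunits lie between 0 and 1, and ucr-2.3 and asb-1 are the lowest genes drawn, at -2.90 and -2.14.

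Over complexes I to IV, the ATP synthase, cytochrome c and the adenine nucleotide carriers, 60 genes other than the described copies were tested. Of them 27 were higher, 4 were lower and 29 did not pass, with a median log2 ratio of 0.49. The 31 genes past the threshold made up 51.7%, beside 37.9% of all features, of which more were lower than higher. Without prep 3 or without prep 4 the higher genes numbered 12, and without prep 1 they numbered 16. The lower genes were the succinate dehydrogenase gene sdha-2 (-1.33 ± 0.23, adjusted p = 0.00102), the cytochrome c gene cyc-2.2 (-0.95 ± 0.21, adjusted p = 0.00353), the carrier gene ant-1.3 (-0.65 ± 0.38, adjusted p = 0.0307) and T27E9.2. The call of ant-1.3 was lost when any of the 4 preps was left out. Apart from T27E9.2, they belong to the sets of copies described below. Whether T27E9.2 itself has a copy was not examined.

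Complex I contributed 25 genes, of which 12 were higher and 0 lower (0 also at an unadjusted p under 0.05), from nduf-2.2 (0.47 ± 0.13, adjusted p = 0.0406) to gas-1 (1.02 ± 0.14, adjusted p = 0.00206), which encode copies of the same core subunit. The call of nduf-2.2 was lost when any prep was left out. Of 4 complex II genes, sdha-1 was higher (0.66 ± 0.17, adjusted p = 0.0134) and sdha-2 lower. Of 6 complex IV genes, cox-4 (0.64 ± 0.25, adjusted p = 0.0198) and cox-6C (0.74 ± 0.30, adjusted p = 0.0144) were higher and 0 lower (0 also at an unadjusted p under 0.05). Both calls were lost without prep 3 and without prep 4, and that of cox-4 also without prep 1. None of the genes of these complexes reached the log2 ratio of ucr-2.2 or fell to that of asb-1.

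Other mitochondrial proteins with several gene copies were set beside the described pairs, as 11 sets with 13 gaps between copies. The sets are a chosen list, and whether it is complete was not examined. The gaps of ucr-2.2 over ucr-2.3 and of asb-2 over asb-1 exceeded all 13, whose means lay between 0.02 and 1.99, which follows from the choice of the members and is no test. Of the 13 gaps, 10 had the same sign on every array and 3 did not. The gaps are given as values with their SD, and none was tested.

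The widest of these other gaps was that of the flavoprotein subunit of succinate dehydrogenase. The copy sdha-1 had log2 ratios of 0.89, 0.54, 0.68 and 0.52 on preps 1 to 4, and sdha-2 had -1.60, -1.42, -1.05 and -1.27. The gap was 1.99 ± 0.35, or 3.98-fold, and the copies did not overlap. For the regulatory subunit of NAD-dependent isocitrate dehydrogenase, idhg-2 was higher (0.71 ± 0.15, adjusted p = 0.00900) and idhg-1 lower (-0.76 ± 0.17, adjusted p = 0.00750), with a gap of 1.47 ± 0.19. Among the 13 gaps, these were the 2 with 1 copy past the threshold on each side.

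In the other sets at most 1 copy passed, or both passed on the same side. The succinyl-CoA ligase gene sucl-1 was higher (1.36 ± 0.30, adjusted p = 0.00120) and sucl-2 had 0.14 ± 0.40, a gap of 1.22 ± 0.50. The cytochrome c gene cyc-2.1 had 0.26 ± 0.31 and exceeded cyc-2.2 by 1.21 ± 0.17. The gaps were 0.75 ± 0.18 for mai-2 over mai-1, 0.62 ± 0.25 for asg-2 over asg-1 and 0.55 ± 0.20 for gas-1 over nduf-2.2. Among the carriers, ant-1.2 exceeded ant-1.3 by 0.91 ± 0.52 and ant-1.1 by 0.41 ± 0.25, and ant-1.1 exceeded ant-1.3 by 0.51 ± 0.34. The copies of import proteins, timm-17B.1 over timm-17B.2 (0.20 ± 0.23) and tin-9.2 over tin-9.1 (0.02 ± 0.31), and of a pyruvate dehydrogenase subunit, dlat-1 over dlat-2 (0.08 ± 0.28), had gaps of both signs over the arrays, and 0 of these 6 genes passed in limma (2 at an unadjusted p under 0.05).

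**Figure D3:**
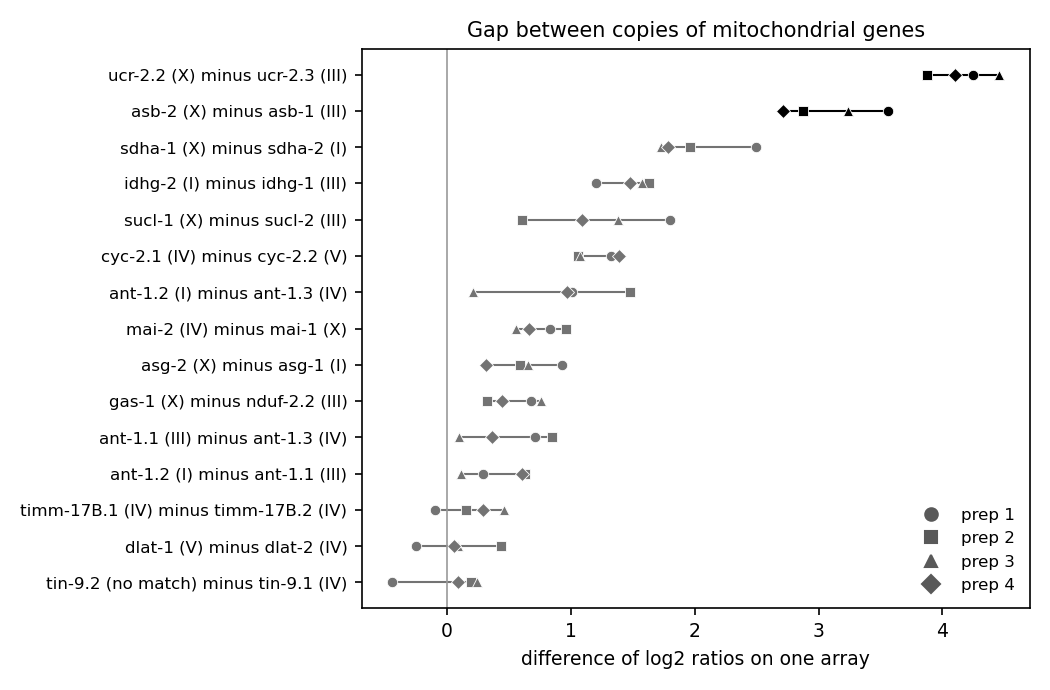
Difference of the log2 ratios of 2 copies on the same array (horizontal axis), with a symbol for each prep and a line from the lowest to the highest, in black for the described copies and in grey for the 13 other gaps. Chromosomes stand in brackets. The described gaps start at 2.71, above the largest grey value of 2.49.

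The choice of the members did not use chromosome itself. It did use their ratios, and ratios differed between chromosomes over all named genes. The split of the copies by chromosome is therefore a description and no test. By the RefSeq gene table of assembly WBcel235, both copies with a ratio above 0, ucr-2.2 and asb-2, are X-linked, both copies below 0 lie on chromosome III, and ucr-2.1, which has no value here, is X-linked too. Over all named genes tested, 2227 X-linked genes had a median log2 ratio of 0.18, with 26.4% higher and 11.8% lower, and 12638 autosomal genes had a median of -0.02, with 16.7% higher and 23.9% lower. On chromosome III, 12.9% of 1910 genes were higher and 29.2% lower, with a median of -0.16. On chromosome V, an autosome, 22.1% of 3839 genes were higher and 16.7% lower, with a median of 0.18 as on the X. The X-linked median exceeded that of the pooled autosomes on every array, and on prep 2 that of chromosome V was as high (0.21 against 0.20). These are counts over genes, without a test.

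The ranks of the described copies on their own chromosomes follow from their choice by ratio and are no evidence on the part of the chromosome. Of the 2227 X-linked genes, 208 had a mean log2 ratio at least as high as ucr-2.2 and 338 at least as high as asb-2. Of the 1910 genes on chromosome III, 19 had one at least as low as ucr-2.3 and 52 at least as low as asb-1. Among the 60 other genes of the pathway, the 5 X-linked ones had a median of 0.75 and 4 of them were higher, and the 55 autosomal ones had a median of 0.48 and 23 were higher. In 5 of the other listed sets of copies 1 copy was X-linked and 1 autosomal. The X-linked copy was above on every array in 4 of them: asg-2, gas-1, sdha-1 and sucl-1. The exception was the inhibitor gene mai-1, which is X-linked and lay below mai-2 on every array. Whether the product of mai-1 is mitochondrial was not examined.

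**Figure D4:**
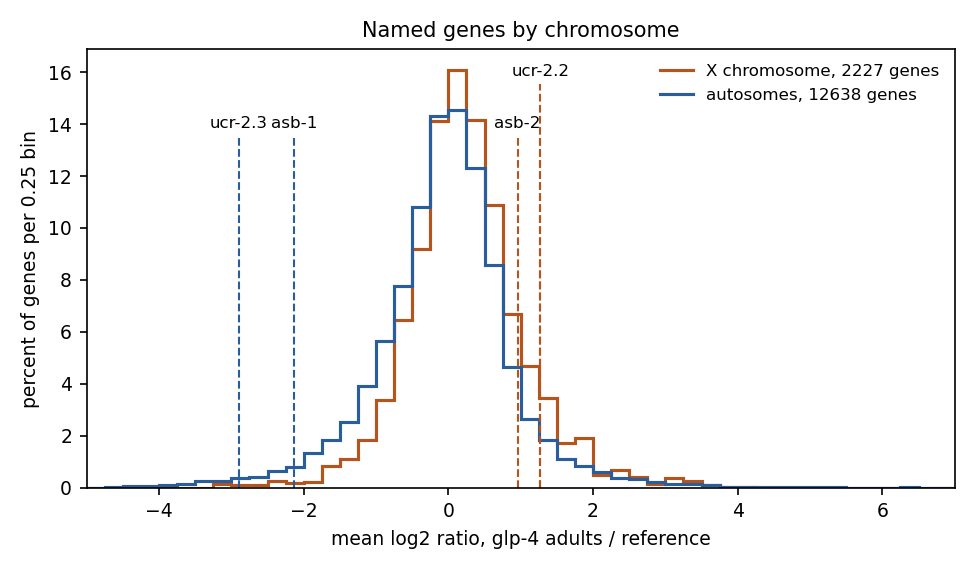
Share of named genes in percent (vertical axis) per 0.25 of mean log2 ratio (horizontal axis), for 2227 X-linked genes in orange and 12638 autosomal genes in blue, with dashed lines at the described copies. The X-linked curve lies to the right of the autosomal one, with medians of 0.18 and -0.02, and both autosomal copies stand in the lower tail.

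The named genes most like each copy were found by the root mean square difference of log2 ratios over the 4 arrays, among 14410 named genes with a value on each of them. Nearest to ucr-2.3 was rpl-11.1, a gene of ribosomal protein L11 (mean log2 ratio -2.77 ± 0.03, root mean square difference 0.175), then the collagen gene col-45 (-3.09 ± 0.11, 0.215) and the F-box gene fbxa-215 (-2.78 ± 0.08, 0.215). Nearest to asb-1 were hmg-12 (-2.08 ± 0.20, 0.0887), C42C1.8 (-2.13 ± 0.15, 0.118) and zif-1 (-2.08 ± 0.29, 0.123), whose product marks germ plasm proteins for degradation in somatic cells of the embryo. Within a difference of 0.25, ucr-2.3 had 4 such genes and asb-1 had 28.

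The upper copies had more genes near them, 73 for ucr-2.2 and 69 for asb-2. Nearest to ucr-2.2 were the X-linked bgal-2 (1.24 ± 0.21, root mean square difference 0.0744), the Argonaute gene sago-1 (1.27 ± 0.19, 0.101) and spin-1 (1.32 ± 0.19, 0.121). Nearest to asb-2 were the X-linked B0416.2 (0.95 ± 0.35, root mean square difference 0.0662), gdh-1, which encodes the mitochondrial enzyme glutamate dehydrogenase (0.92 ± 0.30, 0.116), and sulp-8 (0.92 ± 0.17, 0.116). With 4 arrays of 1 group, likeness reflects mostly the mean ratio.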

How the data were processed

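Per the labels, 4 arrays carried glp-4 adult mRNA and a wild-type mixed reference. The deposited values are log2 ratios of both channels, as made by the authors; the scale was checked on the values, since on every array 100% of those below -2 were the log2 of a whole multiple of 0.001 (to within 0.001 of such a step). Scanner, background correction, normalization, spot filter, genome build and dyes were not stated in the sources used here. Signal over background is unknown, and 4 arrays limit the precision. No label says that separate cultures gave the preps, so the p-values rest on a spread among preps that could be technical only.

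The platform annotation gave 1 gene for 16450 of 21632 spots; 4935 spots were unlisted and 247 had several genes. Spots of a gene were averaged per array, which left 20140 features. Sequence names and chromosomes came from RefSeq's WBcel235 table by gene number (14880 genes matched), and no coordinate was used. The lmFit and eBayes functions of limma (version 3.58.1, under R 4.3.3) gave a two-sided test of the mean log2 ratio against 0, for 19981 features with values on at least 3 arrays and Benjamini-Hochberg adjustment over all of them; the reference RNA is the only control, so the spread of wild-type samples is left out. Python 3.11.15 with pandas 2.3.3 did the rest. The members, gene lists and tests were chosen with earlier results of these data known. Named genes were the members, the genes of complex III, the ATP synthase and the sets of copies, the highest and lowest passing gene of the other complexes, the lower genes of the pathway, mppb-1, and the 3 genes nearest to each member.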

Additional observations from a re-analysis of the deposited data

Results flagged for a closer look

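Among 90 sets of 4 values, those of the pathway genes, the sets of copies and the gaps between copies, 8 held a value that stood apart by Dixon's criterion for 4 samples, which chance alone exceeds in about 1 of 20 sets. The values of the described copies were not among them. In 7 of the 8 the value that stood apart was that of prep 2, and in all 8 it was the lowest. The log2 ratios on prep 2 were 0.43 for T02H6.11, -1.22 for ant-1.3, 0.0186 for atp-4, 0.38 for atp-5, -0.27 for dlat-2, 0.82 for gas-1 and -0.92 for tin-9.1. The exception was the complex IV gene cox-7C, named after its values were seen, with -1.92 on prep 4 against 0.59 to 1.07 on the other arrays. The median of the 60 other pathway genes was 0.25 on prep 2 and 0.54 to 0.60 on the other arrays. Both ucr-2.2 and asb-2 were also lowest on prep 2, at 1.09 and 0.62.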

How the results depend on the processing

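The direction of each described copy and of both gaps was unchanged under every alternative run. The alternatives were centring on the median, median of spots, spots of several genes, and each prep left out. Each copy and gap had the same sign on all 4 arrays, so leaving out a prep could not change a direction. Array medians were too near 0 for centring to change the sign of a copy, and centring leaves gaps as they are. The unchanged directions are therefore no test. Over the preps left out, the mean log2 ratio ranged from 1.23 to 1.33 for ucr-2.2, -2.94 to -2.84 for ucr-2.3, -2.22 to -2.08 for asb-1 and 0.86 to 1.07 for asb-2, and the gaps from 4.08 to 4.27 and from 2.94 to 3.22. Since each copy had 1 spot, both alternatives on spots left the values as they were. Scaling the arrays to the same median absolute deviation, an alternative chosen after seeing the data, moved ucr-2.3 to -3.03. The features tested numbered 2091 to 2793 higher and 3076 to 3686 lower with a prep left out, against 3403 and 4174. The higher genes numbered 12 to 26 over the pathway, 3 to 4 in complex III and 5 to 9 in the ATP synthase, and the lower ones 2 to 3, 0 to 1 and 0. Of 378 values of 42 single genes under the alternatives, 28 lost and 6 gained a call and 0 turned. The date in the array titles, which preps 3 and 4 share, could not be fitted as a random block with 3 dates over 4 arrays. Each ratio pairs a glp-4 prep with the reference on its array, and no pairing between arrays was possible because they form 1 group. Dim spots could not be told from bright ones.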
